A study of Caenorhabditis elegans with 12 samples.

Results

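The cuticle collagen genes of Caenorhabditis elegans were taken as every gene whose symbol is col- followed by a number, together with 18 collagen genes known by a body-shape name: dpy-2, dpy-3, dpy-4, dpy-5, dpy-7, dpy-8, dpy-9, dpy-10, dpy-13, dpy-14, dpy-17, rol-6, sqt-1, sqt-2, sqt-3, bli-1, bli-2 and lon-3. This gave 174 genes of 46778 in the count files, 156 of them with a col- symbol and 18 with another name. The set rests on names, so cuticle collagens under other names may be missing. A few col- genes may encode collagens that do not reach the cuticle. One such gene is col-99, which encodes a transmembrane collagen and has 19 exons where the median member has 2. RNA was measured in whole adults of 4 groups, each with 3 libraries that the labels give as biological repeats: daf-2(e1370) animals of strain CF1041 at day 9 and at day 1 of adulthood, and wild-type N2 animals at day 9 and at day 1. daf-2 encodes the worm's receptor for insulin-like ligands, and e1370 is a missense allele, so the counts of daf-2 itself do not check the genotype. All animals, wild type included, ate OP50 bacteria and were moved around the end of larval life to 50 µM FUdR, which blocks DNA synthesis and so prevents progeny. The comparisons ask how collagen expression differs between old and young adults of each genotype and between the genotypes at each age.

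The cuticle is the worm's collagenous outer coat. The epidermis secretes it anew at every moult, each collagen gene being transcribed at its own stage and its own moment of the moulting cycle, and adults no longer moult. Collagen chains are hydroxylated on proline and folded in the endoplasmic reticulum, trimmed by a subtilisin-like protease outside the cell, and cross-linked through tyrosines in the matrix. Annuli, furrows, alae and, in adults, struts are built from different collagens, and loss of single members makes animals dumpy, rolling, blistered or long.

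The members lie on all 6 chromosomes, with 44 on chromosome IV, 33 on V, 31 on II, 30 on X, 23 on I and 13 on III, on build WBcel235. Their coding lengths run from 462 to 2844 bases, with a median of 912. A total of 57 members stand in 24 runs of neighbours less than 10 kb apart. The exons of 56 members overlap those of another gene, and since the libraries did not mark strand, reads of such pairs cannot be told apart. Every member was detected in at least 1 library, and 121 passed the filter on low counts and were tested. The other 53 had between them no more than 102 counts each over the 12 libraries. Total counts ran from 20322128 to 47447136 per library, and levels are given as CPM, counts scaled to a common library size by TMM, which assumes that most genes do not change.

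Before the results, 2 libraries have to be named. In wild-type replicate 1 at day 1, 33 of the 121 members tested (27.3%) exceeded 2 times the higher of the other replicates of that group, against 4.28% of all genes tested. In daf-2 replicate 3 at day 1 the same held for 29 members (24.0%), against 3.67% of all genes, and 12 members were high in both libraries. The examples that follow were chosen after their values were seen. In wild-type replicate 1, dpy-14 had 50.8 CPM against 3.90 and 5.13 CPM in the other wild-type day 1 libraries, sqt-3 had 35.9 against 4.56 and 4.68 CPM, and dpy-17 had 58.0 against 14.5 and 13.7 CPM. In daf-2 replicate 3, col-124 had 2376 CPM against 844.1 and 880.2 CPM in the other daf-2 day 1 libraries, col-129 had 200.5 against 34.7 and 36.9 CPM, and dpy-4 had 2.96 against 1.07 and 0.790 CPM. Other gene groups moved with these libraries. Summed over 26 moulting genes, wild-type replicate 1 held 579.7 CPM against 370.5 and 369.7 CPM, and summed over 31 cuticlins and other cuticle proteins it held 340.9 CPM against 165.2 and 186.9 CPM. For 23 embryonic genes its sum was 129.5 CPM against 76.9 and 122.5 CPM. In daf-2 replicate 3 the moulting sum was 557.5 CPM against 465.5 and 366.3 CPM, and the summed level of 19 muscle genes was 8295 CPM against 6018 and 6762 CPM. Its sum was also high for 21 basement membrane genes, at 2404 CPM against 1588 and 1515 CPM, and for the cuticlins and other cuticle proteins, at 393.1 CPM against 320.2 and 214.3 CPM. For 16 intestinal genes it was low, at 3285 CPM against 4793 and 5167 CPM. The part of stage or of other tissues in these libraries was not tested. Results that rest on them are given with and without them.

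Young adults of both genotypes devoted several percent of their counts to cuticle collagens, and old adults a small fraction of that. In daf-2 animals the members took 0.372, 0.193 and 0.286% of all counts at day 9, against 2.22, 1.99 and 3.68% at day 1. Wild-type animals gave 0.450, 0.481 and 0.470% at day 9, against 3.24, 2.24 and 2.58% at day 1. The 2 ages did not overlap in either genotype. The difference, day 9 less day 1, was -2.35 percentage points in daf-2 and -2.22 in wild type, each with an exact two-sided permutation p of 0.1, the smallest that 3 libraries against 3 allow, and 0.133 when adjusted over 4 comparisons. Between genotypes, the shares of day 1 overlapped, with a mean of 2.63 ± 0.919% in daf-2 and 2.69 ± 0.508% in wild type (SD, n = 3 each, exact permutation p = 0.9). At day 9 the 3 daf-2 values all lay below the 3 wild-type values, with means of 0.284 ± 0.0894% and 0.467 ± 0.0154% (SD, n = 3 each, exact permutation p = 0.1). In whole animals, fewer epidermal cells and less collagen RNA per cell cannot be told apart.

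**Figure D1:**
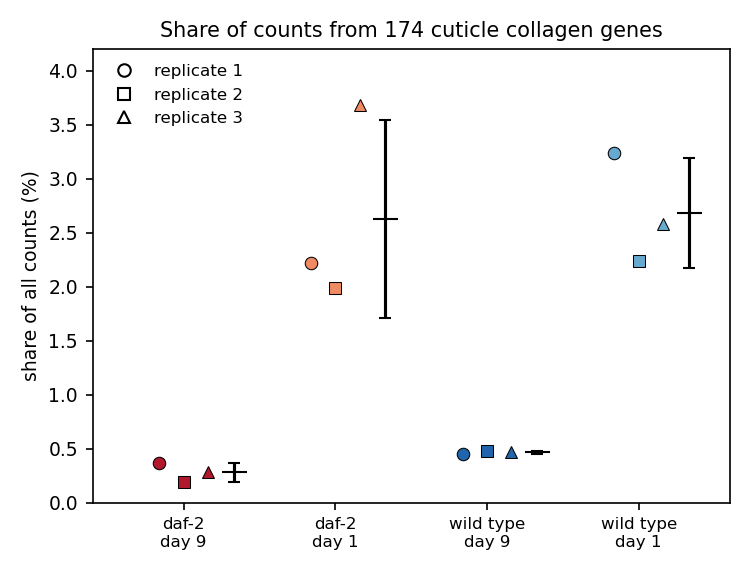
Share of all counts (%) from the 174 cuticle collagen genes in each library, by group, with the mean and SD of 3 replicates beside the points. All 6 day 9 libraries lie at or below 0.481%, and all 6 day 1 libraries at or above 1.99%.

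Few genes carried this share. In daf-2, 20 members made up 90% of the collagen counts at day 9 and 19 did at day 1. In wild type 13 members made up 90% at day 9 and 17 did at day 1. The 5 leading members held 51.9% of the collagen counts in daf-2 at day 9 and 33.8% at day 1, and 63.1% in wild type at day 9 and 39.8% at day 1. Per transcript length, in TPM (counts per length, scaled to the same sum in every library) averaged over the 12 libraries, the order was led by col-119, col-122, col-181, col-140, col-20, col-184, col-106, col-143, col-101 and col-178. The gene with the highest level at day 1 in wild type was col-119, a single-exon gene on chromosome IV (8978926 to 8979795, reverse strand), at 3458 TPM. It had 422.3 TPM in daf-2 at day 9 and 2306 TPM in daf-2 at day 1, and 348.2 TPM in wild type at day 9. In both genotypes the leader at day 9 by CPM was col-181, on chromosome X (12104930 to 12106102, forward strand), with 430.3 TPM in daf-2 at day 9 and 1069 TPM in wild type at day 9.

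Day 9 daf-2 animals were set against day 1 daf-2 animals, and day 9 wild type against day 1 wild type. In daf-2, 71 of the 121 members tested (58.7%) fell with age and 9 (7.44%) rose, where 21.5% of all 15523 genes tested fell and 21.9% rose (adjusted p under 0.05 in the quasi-likelihood test of edgeR, Benjamini-Hochberg over all genes). In wild type, 66 members (54.5%) fell and 12 (9.92%) rose, where 25.6% of all genes fell and 31.2% rose. The median log2 change of the members tested was -2.17 in daf-2 and -1.44 in wild type, against 0.01 and 0.09 over all genes tested. Calls to the same side were made in both genotypes for 63 falling members and 8 rising ones, and no member rose in one and fell in the other. The matching shares of all genes were not counted, so this agreement cannot be called particular to the collagens. The 2 ageing comparisons share no library, but they come from the same fit and share its scaling, filter and estimate of spread. Scaling by the upper quartile moved the median of all genes to 0.14 in daf-2 and 0.26 in wild type, and the genes called to 4351 rising and 2602 falling in daf-2 and 5849 rising and 2967 falling in wild type, where TMM gave 3395 and 3330 in daf-2 and 4848 and 3970 in wild type. Of the members under it, 67 fell and 10 rose in daf-2, and 63 fell and 14 rose in wild type. A member that passed the filter through its high group only could hardly be called the other way. With no filter and all 174 members in the fit, 74 fell and 11 rose in daf-2, and 66 fell and 12 rose in wild type. Without the 2 libraries named above, 70 of 120 members fell and 9 rose in daf-2, where 21.9 and 19.6% of all genes did, and 54 fell and 16 rose in wild type, where 24.4 and 30.6% did.

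Every one of the most abundant members was lower in old animals. Abundance was averaged over both ages, so a member could count as abundant through its day 1 level alone, as col-93 did. The cut is therefore not independent of the change with age. All 23 members that averaged at least 100 CPM over the 12 libraries fell in both genotypes, by log2 changes between -13.46 and -2.01 in daf-2 and between -10.41 and -0.76 in wild type. They held 88.9% of collagen counts in daf-2 at day 9 and 97.0% in daf-2 at day 1, and 92.9% in wild type at day 9 and 97.8% in wild type at day 1. Among those of them named singly, no call with age was lost under any alternative tried. Of 14 members between 10 and 100 CPM, 11 fell and 1 rose in each genotype. The 42 members between 1 and 10 CPM held most of the risers, with 19 falling and 5 rising in daf-2, and 17 falling and 8 rising in wild type. Among the 42 tested members under 1 CPM, 18 fell and 3 rose in daf-2, and 15 fell and 3 rose in wild type.

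**Figure D2:**
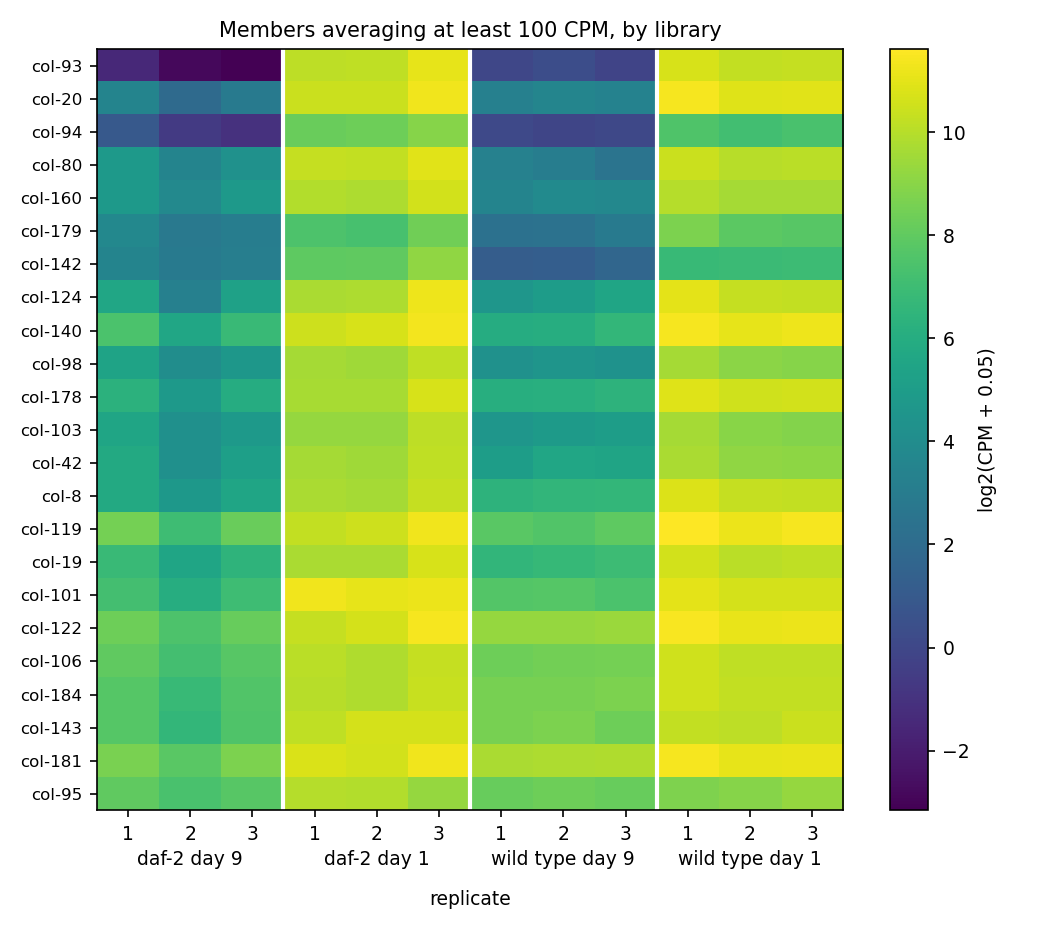
Level of the 23 members averaging at least 100 CPM in each library, as log2(CPM + 0.05), with the genes ordered by their change with age in wild type. Every gene is lower in the day 9 libraries than in the day 1 libraries of the same genotype, by the widest margin for col-93 and by the narrowest for col-95.

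The size of the fall differed widely between abundant genes. In daf-2, col-93 had 0.320, 0.0901 and 0.0622 CPM at day 9, against 1142, 1183 and 2126 CPM at day 1. Wild-type animals had 0.945, 1.23 and 0.880 CPM at day 9, against 1672, 1208 and 1289 CPM at day 1. The day 9 values of each genotype were thus near the limit of detection for a gene that was among the 10 most abundant collagens of young adults. Its log2 change was -13.46 ± 0.467 in daf-2 (SE, adjusted p = 5.23e-09) and -10.41 ± 0.400 in wild type (adjusted p = 2.58e-08). It is the middle gene of a run on chromosome III (10982139 to 10987873) whose neighbours did likewise. The first neighbour, col-94, had 1.88, 0.577 and 0.435 CPM in daf-2 at day 9 against 297.0, 323.3 and 482.1 CPM at day 1, and in wild type 1.03, 0.919 and 0.964 CPM at day 9 against 187.1, 143.2 and 167.9 CPM at day 1. The second, col-92, had no count in any daf-2 day 9 library, and 54.4, 45.6 and 139.1 CPM in the day 1 libraries. It was thus at least 3420-fold lower at day 9, taking 3 counts over the group as the floor.

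Another collagen that nearly vanished was col-20, on chromosome II (4869670 to 4870791, reverse strand). In daf-2 it had 11.1, 3.73 and 7.34 CPM at day 9 against 1400, 1370 and 2458 CPM at day 1. Its wild-type levels were 9.53, 11.6 and 10.4 CPM at day 9 against 2718, 1912 and 1985 CPM at day 1. It was 240.2-fold lower at day 9 in daf-2 (adjusted p = 1.83e-07) and 209.9-fold lower in wild type (adjusted p = 1.56e-07). By the same rule of a level over 10 CPM and no overlap between libraries, the other named falls were those of col-80, col-159 and col-139 in wild type, with log2 changes of -7.15, -6.17 and -6.08, and those of col-80, col-159 and col-144 in daf-2, with log2 changes of -6.21, -6.71 and -6.01. The exons of col-159 overlap those of col-160, which held 135971 counts in all against 7923 for col-159. How much of the col-159 fall comes from col-160 was not tested.

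At the other end stood abundant members with smaller falls, which were still several-fold in daf-2. Wild-type animals had 838.6, 869.5 and 920.6 CPM of col-181 at day 9, against 2743, 2169 and 2201 CPM at day 1, a log2 change of -1.44 ± 0.224 (adjusted p = 0.00021). In daf-2, col-181 had 392.9, 230.7 and 409.0 CPM at day 9, against 1740, 1576 and 2458 CPM at day 1, a log2 change of -2.48 ± 0.232 (adjusted p = 8.41e-06). It was thus 5.59-fold lower at day 9 in daf-2 and 2.71-fold lower in wild type. The log2 changes were near these for col-184, at -2.67 in daf-2 and -1.75 in wild type, for col-106, at -2.38 and -1.87, and for col-122, at -2.81 and -1.94. The smallest fall of the 23 in both genotypes was that of col-95, with 254.6, 167.2 and 217.5 CPM in daf-2 at day 9 against 979.0, 970.5 and 626.5 CPM at day 1, and in wild type 294.4, 330.7 and 285.8 CPM at day 9 against 424.7, 494.5 and 623.5 CPM at day 1.

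Neighbouring members often fell together, but 63 of the 121 members tested fell in both genotypes wherever they lie. Whether neighbours did so more often than other members was not tested. In 12 of the 19 runs with at least 2 tested members, every tested member fell in both genotypes. Among these is the run of dpy-7 and col-174, where dpy-7 lost its wild-type call without wild-type day 1 replicate 1. Another is col-159 and col-160, whose exons overlap, so that their reads cannot be told apart. In 2 runs a rise and a fall stood side by side in wild type. One is dpy-13 and col-34 on chromosome IV, and the other is col-183 and col-184 on chromosome X. Both wild-type calls of the first pair were fragile. That of dpy-13 was lost under 4 alternatives (adjusted p 0.0598 to 0.176) and that of col-34 under 2 (adjusted p 0.0548 and 0.0556).

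The strongest riser with age was col-183, on chromosome X (13466643 to 13467764, reverse strand), which held 8 counts over the 3 young wild-type libraries. In daf-2 it had 27.4, 36.1 and 30.5 CPM at day 9, against 2.72, 3.21 and 1.37 CPM at day 1. Wild-type animals had 73.6, 100.8 and 68.1 CPM at day 9, against 0.156, 0.180 and 0.0684 CPM at day 1. It was thus near absent from young wild type, present at a low level in young daf-2, and high in old animals of both genotypes, highest in old wild type. The log2 change with age was 3.70 ± 0.267 in daf-2 (adjusted p = 1.54e-06) and 9.30 ± 0.395 in wild type (adjusted p = 2.74e-08). Its annotated overlapping gene F02D10.10 held 44 counts over all libraries, against 10375 for col-183, and its neighbour col-184 fell.

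The other risers were rare transcripts. Called as rising in both genotypes were col-111, col-128, col-60, col-68, col-87, dpy-9 and sqt-2. The most abundant of these, col-111, had 12.3, 16.95 and 14.9 CPM in daf-2 at day 9 against 5.12, 4.79 and 3.99 CPM at day 1, and in wild type 8.75, 8.24 and 6.75 CPM at day 9 against 4.22, 2.699 and 2.22 CPM at day 1. Of the 12 risers in wild type, 6 overlap another gene, among them col-111 with psr-1, which had 27805 counts in all, and col-87 with xrn-1, which had 33489. How much of their rise comes from those genes was not tested. Among risers free of overlap, col-68 had 3.56, 3.79 and 4.0 CPM in daf-2 at day 9 against 1.16, 1.11 and 1.29 CPM at day 1, and in wild type 4.68, 4.06 and 4.69 CPM at day 9 against 1.35, 1.68 and 1.71 CPM at day 1. Calls in wild type alone were made for col-34, col-50, col-83 and col-85. The rise of col-83 lost its call under 14 of the alternatives (adjusted p 0.052 to 0.16), among them without any of the wild-type day 1 replicates 1, 2 and 3, wild-type day 9 replicates 1 and 2, daf-2 day 1 replicate 3 and daf-2 day 9 replicates 1 and 2. That of col-34 was lost when wild-type day 1 replicate 3 was left out, and when day 9 replicate 2 was (adjusted p 0.0548 and 0.0556). In daf-2, the rise of col-87 lost its call without day 9 replicate 2 (adjusted p = 0.0656), and that of col-60 without day 1 replicates 2 or 3 or day 9 replicate 2 (adjusted p 0.0507 to 0.0975 over 6 alternatives).

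**Figure D3:**
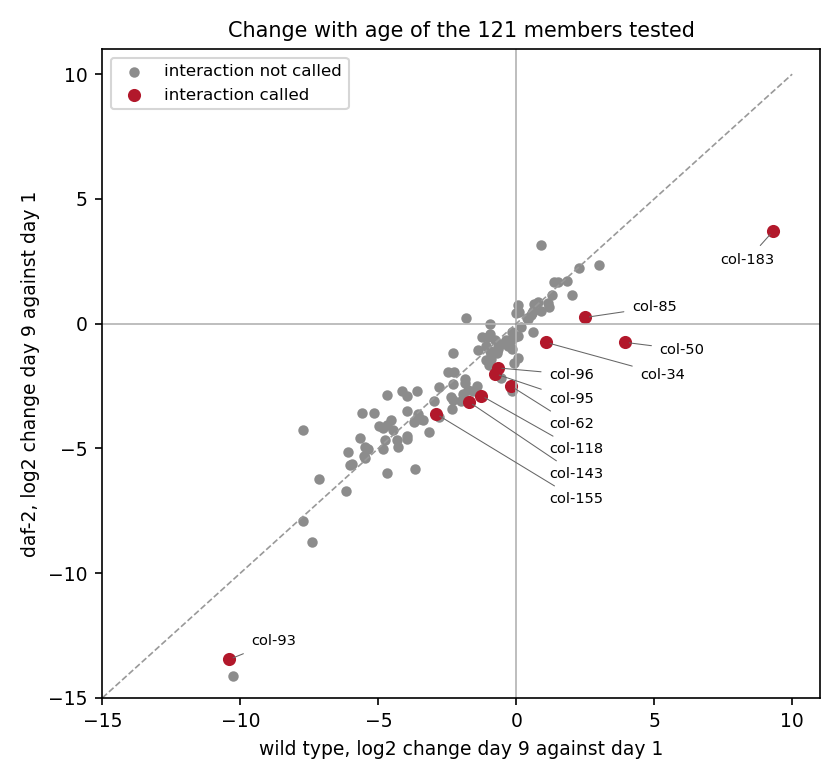
Log2 change at day 9 against day 1 of the 121 members tested, in daf-2 (vertical axis) and in wild type (horizontal axis), with red points for the 11 members whose interaction of genotype and age was called. Points below the dashed line of equal change have the more negative change in daf-2, and all 11 red points lie below it. The grey point next to col-93 is col-92, whose value in daf-2 is a fitted one because all 3 of its daf-2 day 9 libraries are at 0.

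Members named for a body-shape phenotype were called in both directions with age. Averaged over the 12 libraries, dpy-17 had 32.6 CPM, dpy-14 26.8 CPM and sqt-3 11.7 CPM, and each of the other 15 had 5.001 CPM or less. Of the 18, 14 were tested and bli-2, dpy-8, rol-6 and sqt-1 were not, with 11 to 26 counts per group at day 1. Of these, dpy-9 and sqt-2 rose in both genotypes. The furrow collagen gene dpy-9 had 3.40, 4.26 and 3.25 CPM in daf-2 at day 9 against 2.27, 1.21 and 1.46 CPM at day 1, and in wild type 4.85, 6.51 and 6.2 CPM at day 9 against 1.61, 1.14 and 1.504 CPM at day 1. Its log2 change was 1.14 ± 0.264 in daf-2 (adjusted p = 0.00452) and 2.03 ± 0.271 in wild type (adjusted p = 6.7e-05). For sqt-2 the log2 change was 1.70 ± 0.413 in daf-2 (adjusted p = 0.0059) and 1.84 ± 0.423 in wild type (adjusted p = 0.00301).

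Falls in both genotypes were called for sqt-3, dpy-3, dpy-7 and dpy-13, but in wild type they rested on replicate 1 of day 1. sqt-3 encodes a collagen of early larval cuticles. In daf-2 it had 4.56, 2.87 and 2.67 CPM at day 9 against 28.2, 16.4 and 31.4 CPM at day 1, and in wild type 1.93, 3.37 and 3.44 CPM at day 9 against 35.9, 4.56 and 4.68 CPM at day 1. Its log2 change was -2.93 ± 0.683 in daf-2 and -2.36 ± 0.687 in wild type, and in wild type -0.67 ± 0.340 (adjusted p = 0.116) without that library. Without it the wild-type changes of dpy-3, dpy-7 and dpy-13 were -0.51, -0.91 and -1.91 and lost their calls (adjusted p = 0.53, 0.147 and 0.176), against -2.29, -2.34 and -3.55 with it. In daf-2 the log2 changes were -2.44 for dpy-3, -3.42 for dpy-7 and -3.62 for dpy-13, and that of dpy-3 lost its call when day 1 replicate 3 or day 9 replicates 2 or 3 were left out (adjusted p 0.0548 to 0.0885). dpy-17, whose product partners that of sqt-3 in the matrix, and dpy-14 passed no test with all libraries. Without wild-type replicate 1 of day 1 both rose with age in wild type, dpy-14 by a log2 change of 1.83 ± 0.385 (adjusted p = 0.00244) and dpy-17 by 0.87 ± 0.250 (adjusted p = 0.0129). That library was named because members such as these were high in it. Leaving it out therefore lowers their young wild-type level, and these adjusted p values are no independent evidence of a rise.

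The remaining tested names gave few calls. The fall of dpy-10, a furrow collagen gene, was called in daf-2 (-0.93 ± 0.322, adjusted p = 0.0334) and that of dpy-4 likewise (-2.69 ± 0.698, adjusted p = 0.00846). For dpy-10 that call was lost under upper-quartile scaling and without daf-2 day 1 replicates 1 or 3 or any day 9 replicate of daf-2 (adjusted p 0.0624 to 0.0986), and for dpy-4 in the blocked fit of the compared groups alone (adjusted p = 0.0573). lon-3 fell in wild type, with 0.288, 0.153 and 0.210 CPM at day 9 against 0.833, 1.08 and 0.479 CPM at day 1 (adjusted p = 0.0109). dpy-2, dpy-5 and the strut collagen gene bli-1 passed no test between ages, with log2 changes of -1.195, -0.42 and -0.88 in daf-2 and -0.68, -0.97 and -1.10 in wild type.

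**Figure D4:**
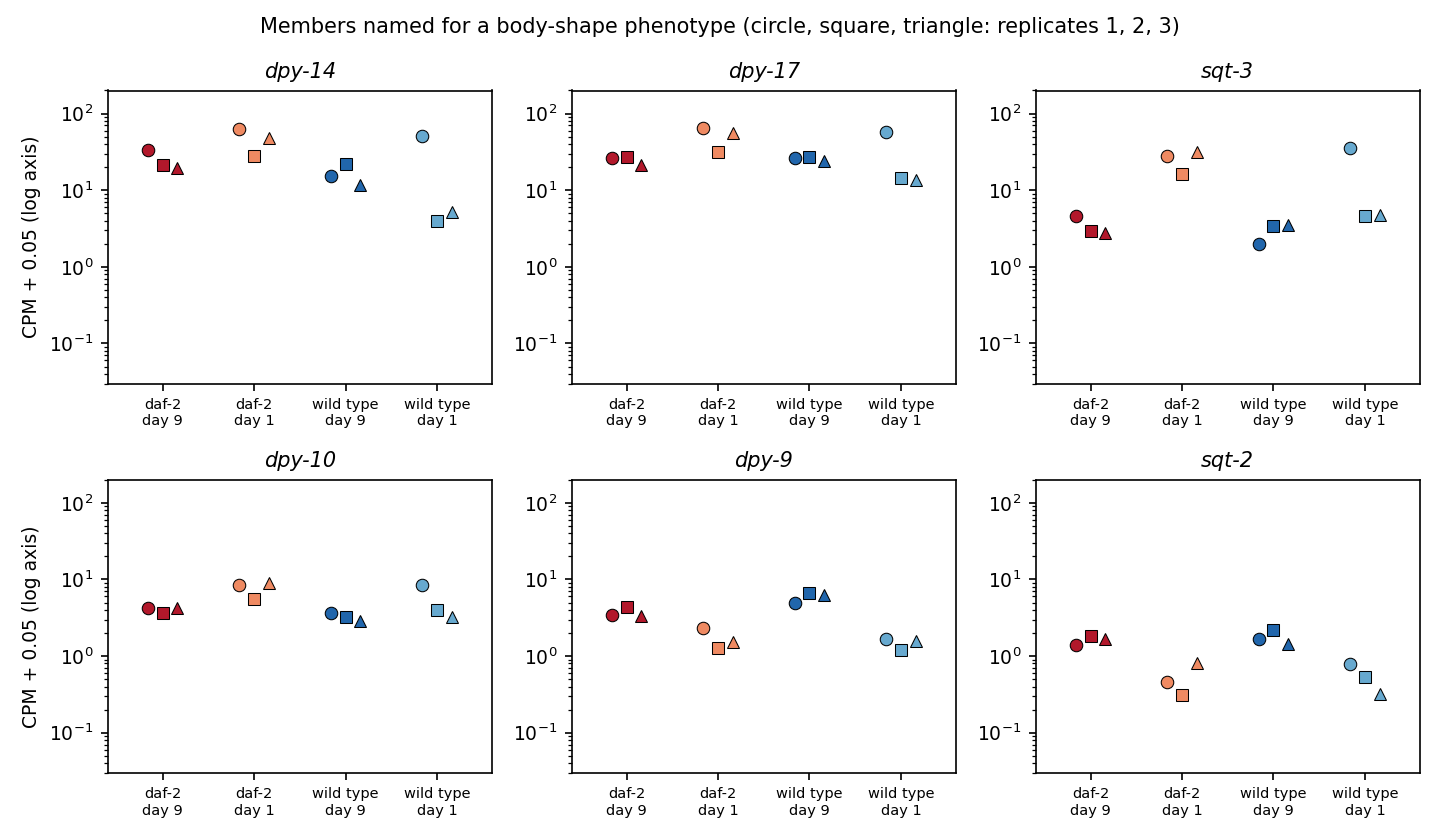
CPM + 0.05 on a log axis of 6 members named for a body-shape phenotype, in each library by group; circles, squares and triangles are replicates 1, 2 and 3. The circle of wild type at day 1 stands far above its square and triangle for dpy-14 (50.8 against 3.90 and 5.13 CPM), dpy-17 and sqt-3, while dpy-9 and sqt-2 are higher at day 9 than at day 1 in both genotypes.

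Of the 7 measured collagens known for a stage or for longevity, col-19, col-10 and col-13 fell in both genotypes. col-19, the standard marker of the adult cuticle, had 114.7, 46.2 and 86.6 CPM in daf-2 at day 9 against 866.4, 852.9 and 1677 CPM at day 1, and in wild type 92.8, 104.8 and 125.3 CPM at day 9 against 1548, 1073 and 1152 CPM at day 1. Its log2 change was -3.78 ± 0.357 in daf-2 and -3.55 ± 0.353 in wild type. Of the 3 collagens reported to extend lifespan when overproduced, col-10 and col-13 fell in both genotypes, with log2 changes of -4.68 and -4.96 in daf-2 and -4.77 and -4.28 in wild type. The third, col-120, passed no test and stayed at or below 0.579 CPM in all 12 libraries. No test between genotypes called any of these 3 at either age. Their summed CPM ran from 0.639 to 0.891 in daf-2 and from 0.616 to 0.964 in wild type at day 9, and from 9.86 to 20.9 in daf-2 and from 9.81 to 18.8 in wild type at day 1. col-7, an adult collagen gene, was called as falling in daf-2 (-1.67 ± 0.605, adjusted p = 0.0413) and was lost under 10 alternatives (adjusted p 0.0504 to 0.117), and col-40, a dauer collagen gene, was called there too (-1.39 ± 0.476, adjusted p = 0.0327) and lost under 8 (adjusted p 0.0547 to 0.167). These losses came without any of daf-2 day 1 replicates 1 and 3, daf-2 day 9 replicates 1 and 3, wild-type day 1 replicate 2 and wild-type day 9 replicate 2 for col-7, and without daf-2 day 1 replicates 1 and 3 and daf-2 day 9 replicates 2 and 3 for col-40.

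The dauer collagen gene col-2 was the single member that rose with age in daf-2 and was not called in wild type. It had 1.68, 1.19 and 1.97 CPM in daf-2 at day 9 against 0.371, 0.158 and 0 CPM at day 1, and in wild type 0.246, 0.421 and 0.210 CPM at day 9 against 0.104, 0.240 and 0.137 CPM at day 1. The 3 old daf-2 libraries lay above every other library. The log2 change with age was 3.14 ± 0.639 in daf-2 (adjusted p = 0.00199) and 0.90 ± 0.749 in wild type (adjusted p = 0.32). The difference between these changes was 2.24 ± 1.03 on the log2 scale and was not called (adjusted p = 0.21).

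In young adults the genotypes differed little across the family. Of the 121 members tested, 10 (8.26%) were higher in daf-2 than in wild type at day 1, where 10.3% of all genes were, and 4 (3.31%) were lower, where 5.06% were. Both shares are near those of all genes. Of all genes called at day 1, 67.1% were higher in daf-2 under TMM, 55.1% under RLE size factors and 50.7% in DESeq2. Higher in daf-2 were col-36, col-50, col-62, col-76, col-85, col-94, col-95, col-116, col-142 and col-183, and lower were col-43, col-135, col-158 and lon-3. This count depended on the wild-type library named above. Without it, 24 of 126 members were higher in daf-2, where 12.8% of all genes were, and 3 were lower, where 7.27% were. Without both of the libraries named above, 23 of 120 (19.2%) were higher and 5 lower, where 14.2 and 7.71% of all genes were. Among those called higher without both were dpy-14 by a log2 difference of 3.31, dpy-7 by 2.42, sqt-3 by 2.27, dpy-3 by 2.22, dpy-2 by 2.10, dpy-17 by 1.78 and dpy-10 by 0.99. All of these are among the members by whose high values the wild-type library was named. Leaving it out after seeing those values favours this direction, so these calls are no independent evidence of a genotype difference. Without daf-2 replicate 3 alone, 8 of 126 (6.35%) were higher and 8 lower, where 10.8 and 7.25% of all genes were, and the lower ones then took in col-119 (-1.07), col-122 (-0.81) and col-129 (-1.27).

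Some members separated the genotypes at day 1 whichever library was left out. col-142, on chromosome V (6831177 to 6832256, forward strand), overlaps T15B7.14, which held 196 counts in all against 33237. It had 241.6, 260.1 and 573.2 CPM in daf-2 and 111.7, 119.2 and 123.6 CPM in wild type, a log2 difference of 1.60 ± 0.281 (adjusted p = 0.00299). At day 9 it was higher in daf-2 again, with 11.5, 7.25 and 8.95 CPM against 2.22, 2.38 and 3.18 CPM in wild type (1.82 ± 0.333, adjusted p = 0.00354). col-76 had 34.5, 33.7 and 22.3 CPM in daf-2 and 18.3, 17.03 and 16.7 CPM in wild type at day 1 (0.80 ± 0.157, adjusted p = 0.00583). Among scarce members, col-50 on chromosome I (3651236 to 3652702, reverse strand) had 8.004, 5.42 and 2.01 CPM in daf-2 against 0, 0.0600 and 0.0342 CPM in wild type at day 1, and the fitted log2 difference was 7.19 ± 0.728 (adjusted p = 5.66e-05). col-85 had 5.69, 5.53 and 2.06 CPM in daf-2 against 0.521, 0.420 and 0.444 CPM in wild type (3.25 ± 0.430, adjusted p = 0.000433), and col-36 had 1.61, 0.685 and 1.46 CPM in daf-2 against 0.0521, 0 and 0.0684 CPM (4.67 ± 0.652, adjusted p = 0.000634). For each of these the groups did not overlap. The exons of col-36 overlap those of dyf-13, which held more counts in all than col-36 itself. How much of the col-36 difference comes from dyf-13 was not tested. Lower in daf-2 was col-43, with 0.866, 0.737 and 0.686 CPM against 5.78, 4.14 and 6.80 CPM in wild type (-2.86 ± 0.279, adjusted p = 4.51e-05).

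Other calls of day 1 were fragile. That of col-94 (1.15 ± 0.284, adjusted p = 0.0188) was lost without wild-type day 1 replicates 2 or 3, without daf-2 day 1 replicate 3 and in DESeq2 (adjusted p 0.0515 to 0.0827). That of col-95 (0.74 ± 0.202, adjusted p = 0.029) was lost without wild-type day 1 replicates 1 or 2 or daf-2 day 1 replicates 1 or 2, and in both fits of the compared groups alone (adjusted p 0.0681 to 0.109). col-62 and lon-3 each lost theirs under 13 alternatives, with adjusted p up to 0.199 and 0.151, and col-135 under 5, with adjusted p up to 0.109. For col-62 these took in leaving out each wild-type library in turn, daf-2 day 1 replicate 3 and daf-2 day 9 replicate 2.

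At day 9, 15 of the 121 members (12.4%) were lower in daf-2 than in wild type, where 6.26% of all genes were, and 6 (4.96%) were higher, where 4.54% were. Of the 10 members with the highest counts in old daf-2 animals, col-181, col-122, col-106, col-184, col-143 and col-101 were lower than in old wild type, and col-119, col-95, col-140 and col-19 were not called (log2 differences of 0.24, -0.51, 0.55 and -0.39). col-181 had 392.9, 230.7 and 409.0 CPM in old daf-2 and 838.6, 869.5 and 920.6 CPM in old wild type, a log2 difference of -1.35 ± 0.223 (adjusted p = 0.00182). For col-122 the levels were 319.9, 180.1 and 291.0 CPM in daf-2 and 624.9, 625.1 and 673.1 CPM in wild type (-1.28 ± 0.266, adjusted p = 0.00784). col-143 had 210.3, 97.6 and 185.4 CPM in daf-2 and 384.6, 421.4 and 322.3 CPM in wild type (-1.195 ± 0.240, adjusted p = 0.00641), and col-184 had 211.6, 109.4 and 195.5 CPM in daf-2 and 375.8, 385.8 and 407.2 CPM in wild type (-1.18 ± 0.217, adjusted p = 0.00362). These 4 were named by a rule that required no overlap between the groups, and in all 4 daf-2 replicate 2 was the lowest library. col-183, the riser, was lower in old daf-2 too (-1.37 ± 0.227, adjusted p = 0.00186). Of the 23 abundant members, 8 were lower in daf-2 at day 9, 2 higher and 13 not called.

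The calls of col-8, col-106 and col-101 at day 9 were less firm. col-8 (-1.10 ± 0.263, adjusted p = 0.0179) lost its call without wild-type day 9 replicates 2 or 3 (adjusted p 0.0517 and 0.0566), col-106 (-0.75 ± 0.187, adjusted p = 0.0217) without either of those or daf-2 day 9 replicate 2 (adjusted p 0.0653 to 0.0683), and col-101 (-0.78 ± 0.232, adjusted p = 0.05) under 15 alternatives (adjusted p 0.0503 to 0.154), among them leaving out any single library other than daf-2 day 9 replicate 1.

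Higher in daf-2 at day 9 were col-2, col-50, col-80, col-111, col-116 and col-142. col-80 had 28.8, 11.2 and 19.9 CPM in daf-2 and 10.2, 8.43 and 5.74 CPM in wild type (1.29 ± 0.321, adjusted p = 0.0219). It lost its call without wild-type day 9 replicates 2 or 3, without daf-2 day 9 replicate 1, and in the fit of the 2 groups alone (adjusted p 0.0533 to 0.0859). col-111 (0.90 ± 0.226, adjusted p = 0.0227) lost its call without any wild-type day 9 library and without daf-2 day 9 replicates 2 or 3 (adjusted p 0.0515 to 0.0885), col-116 without wild-type day 9 replicates 1 or 3 and daf-2 day 9 replicates 1 or 2 (adjusted p up to 0.134), and col-2 without wild-type day 9 replicates 1 or 3 or daf-2 day 9 replicate 3 (adjusted p 0.0519 to 0.0837). Among the 6 day 9 libraries, those of the same number deviated together from their group means, though the labels state no pairing. With the replicate number as a block among these 6 libraries, 12 of 84 members tested were higher in daf-2 and 19 lower, where 9.47 and 13.9% of all genes were.

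Whether the change with age differed between the genotypes was tested by the interaction, which takes the wild-type log2 change from the daf-2 one. It was called below 0 for 11 of 121 members (9.09%), where 4.72% of all genes were, and above 0 for none, where 0.573% of all genes were. Above 0, edgeR gave 3 members at an unadjusted p under 0.05, and DESeq2 called 0. Of all genes called, 10.8% had an interaction above 0 in edgeR and 30.2% in DESeq2. Without daf-2 replicate 3 of day 1, 4 of 126 members (3.17%) were called above 0, namely col-129, col-135, col-139 and col-179, where 1.47% of all genes were. Without both libraries named above 2 of 120 (1.67%) were, col-129 and col-139, where 1.89% of all genes were. The count below 0 ran from 3 to 17 when single libraries were left out, with 17 of 126 without wild-type replicate 1 of day 1 (5.54% of all genes) and 3 without wild-type replicate 2 of day 9.

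**Figure D5:**
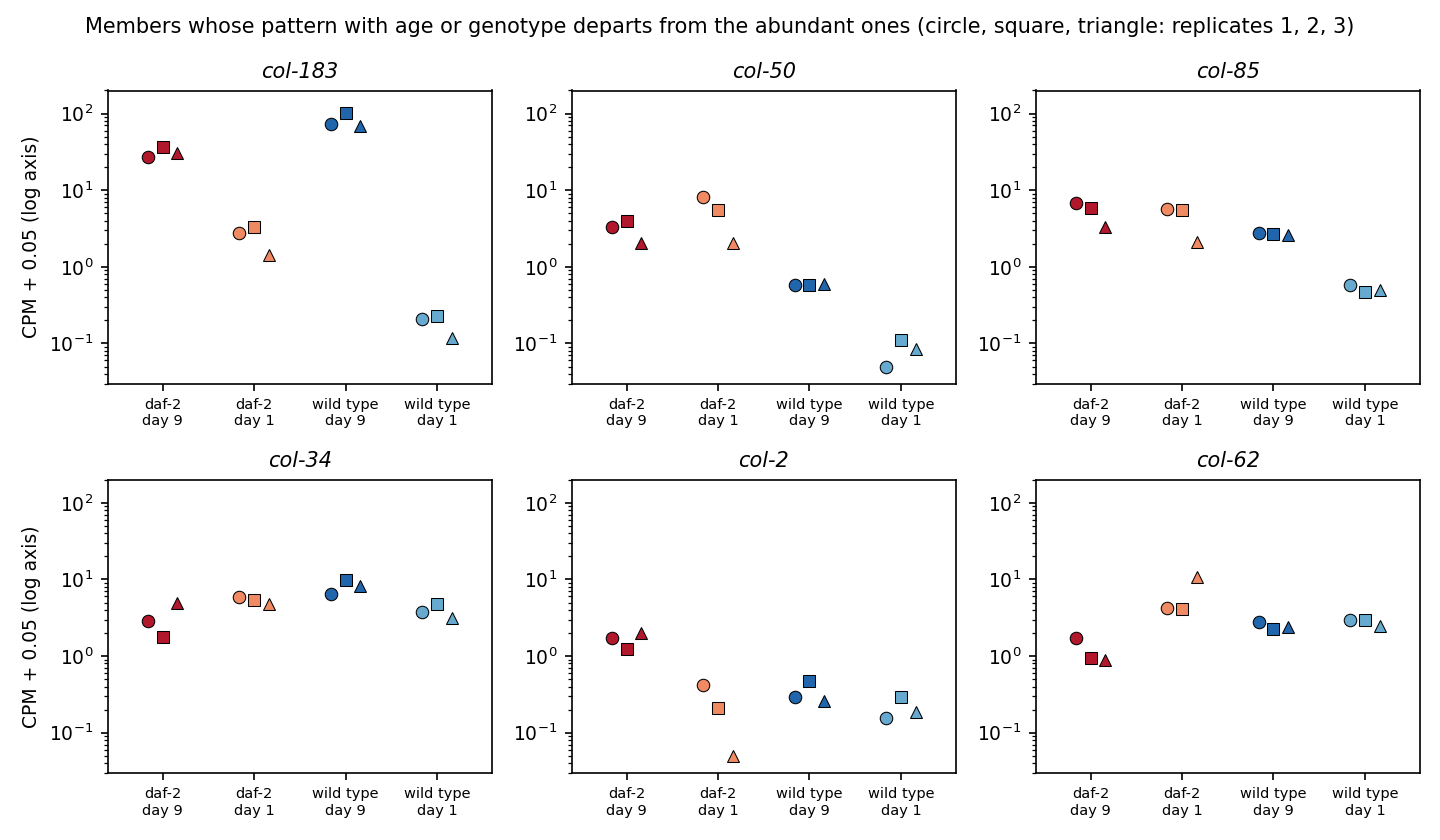
CPM + 0.05 on a log axis of 6 members whose pattern departs from the shared fall, in each library by group; circles, squares and triangles are replicates 1, 2 and 3. In col-183 the wild-type libraries span 0.0684 to 100.8 CPM and those of daf-2 1.37 to 36.1 CPM, in col-50 and col-85 young wild type is the lowest group, and in col-2 old daf-2 is the highest.

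Of these 11 members, col-183 and col-50 kept the call under every alternative in which they were tested. The stricter filter, at 10 CPM in 3 libraries, left col-50 out of the test. col-183 had an interaction of -5.61 ± 0.513 (adjusted p = 0.000113): it rose in both genotypes, less in daf-2, where the young animals already held 2.72, 3.21 and 1.37 CPM. For col-50 the interaction was -4.70 ± 0.968 (adjusted p = 0.0164). It had 3.28, 3.89 and 2.01 CPM in daf-2 at day 9 against 8.004, 5.42 and 2.01 CPM at day 1, and in wild type 0.534, 0.536 and 0.545 CPM at day 9 against 0, 0.0600 and 0.0342 CPM at day 1. In daf-2 it was thus present at both ages with overlapping libraries, and in wild type it appeared with age. In col-85, too, both daf-2 groups stood above old wild type on average and young wild type was lowest, with 6.71, 5.86 and 3.23 CPM in daf-2 at day 9, 5.69, 5.53 and 2.06 CPM in daf-2 at day 1, 2.71, 2.64 and 2.56 CPM in wild type at day 9, and 0.521, 0.420 and 0.444 CPM in wild type at day 1. Its interaction of -2.26 ± 0.556 (adjusted p = 0.0361) lost its call when any one of 9 libraries was left out, all but replicate 1 of wild type at day 1, replicate 3 of daf-2 at day 1 and replicate 1 of daf-2 at day 9 (adjusted p 0.0505 to 0.0908).

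Among abundant members the interaction was called for col-93 (-3.06 ± 0.600, adjusted p = 0.0131), col-143 (-1.43 ± 0.336, adjusted p = 0.0294) and col-95 (-1.25 ± 0.285, adjusted p = 0.0264), each falling further in daf-2. That of col-93 rests on 16 counts over the 3 daf-2 day 9 libraries and lost its call without daf-2 day 9 replicate 2 (adjusted p = 0.0546). That of col-143 was lost under 5 alternatives (adjusted p 0.0543 to 0.0803), among them without wild-type day 1 replicate 2, wild-type day 9 replicates 1 or 2 or daf-2 day 1 replicate 2, and that of col-95 without any of wild-type day 1 replicate 2, the 3 wild-type day 9 libraries, daf-2 day 1 replicates 1 or 2 and daf-2 day 9 replicate 2 (adjusted p 0.0512 to 0.0723). col-118 had 2.16, 2.00 and 3.54 CPM in daf-2 at day 9 against 19.6, 19.01 and 18.6 CPM at day 1, and in wild type 6.12, 8.62 and 8.88 CPM at day 9 against 20.8, 23.6 and 12.8 CPM at day 1. Its interaction was -1.62 ± 0.365 (adjusted p = 0.0257). That of col-96, the neighbour of col-95, was -1.10 ± 0.257 (adjusted p = 0.0291). Both lost their calls without any of wild-type day 9 replicates 2 and 3, daf-2 day 1 replicate 2 and daf-2 day 9 replicates 1 and 2, col-118 also without daf-2 day 1 replicate 1 and col-96 without wild-type day 1 replicate 3 (adjusted p 0.0539 to 0.0692 for col-118 and 0.0607 to 0.0835 for col-96).

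The other 3 were scarcer or smaller in effect. col-155 had 3.6, 3.44 and 4.17 CPM in daf-2 at day 9 against 44.4, 48.3 and 45.5 CPM at day 1, and in wild type 5.63, 6.28 and 5.95 CPM at day 9 against 46.9, 48.5 and 38.4 CPM at day 1, with an interaction of -0.72 ± 0.174 (adjusted p = 0.0332). col-62 had 1.68, 0.901 and 0.829 CPM in daf-2 at day 9 against 4.25, 4.11 and 10.6 CPM at day 1, and in wild type 2.71, 2.18 and 2.35 CPM at day 9 against 2.86, 2.94 and 2.43 CPM at day 1, with an interaction of -2.33 ± 0.541 (adjusted p = 0.0282). For col-34 the levels were 2.84, 1.73 and 4.85 CPM in daf-2 at day 9 against 5.82, 5.32 and 4.76 CPM at day 1, and in wild type 6.41, 9.81 and 8.13 CPM at day 9 against 3.70, 4.74 and 3.11 CPM at day 1, and the interaction was -1.84 ± 0.459 (adjusted p = 0.0386). Old wild type was the highest group for col-34, and young daf-2 for col-62. The calls of col-155 and col-34 were lost under 11 alternatives each, 8 and 9 of them leaving out 1 library (adjusted p 0.0501 to 0.0921 and 0.0508 to 0.104), and that of col-62 when wild-type day 1 replicates 2 or 3, any wild-type day 9 library or daf-2 day 9 replicates 2 or 3 were left out (adjusted p 0.0525 to 0.0724).

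The read assignment of 2 neighbouring pairs limits what can be said of them. col-117 and col-3, side by side on chromosome IV, had counts that alternated, with col-117 at 0 in 5 libraries and col-3 at 0 in 2, and neither was called with age. Their summed level was 7.71, 11.6 and 8.54 CPM in daf-2 at day 9 against 24.8, 33.6 and 32.1 CPM at day 1, and in wild type 7.89, 7.51 and 7.67 CPM at day 9 against 21.3, 18.8 and 12.4 CPM at day 1. The 2 ages did not overlap in either genotype, with an exact permutation p of 0.1 for each, the smallest possible. col-126 and col-127 had identical counts in all 12 libraries.

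Genes that modify, fold, secrete and cross-link collagen were called in both directions. Among 35 tested genes for hydroxylation, folding, secretion, trimming and cross-linking, 10 rose and 5 fell with age in daf-2, and 11 rose and 6 fell in wild type. Of all genes tested, 21.9% rose and 21.5% fell in daf-2, and 31.2% rose and 25.6% fell in wild type. The median log2 change of the list was 0.08 in daf-2 and 0.09 in wild type. enpl-1, the endoplasmic reticulum chaperone of the HSP90 family, had 912.9, 975.3 and 1118 CPM in daf-2 at day 9 against 511.0, 552.0 and 553.0 CPM at day 1, and in wild type 925.0, 862.3 and 984.2 CPM at day 9 against 538.9, 548.9 and 489.6 CPM at day 1. dpy-18, a catalytic subunit of collagen prolyl 4-hydroxylase, rose by a log2 change of 0.41 ± 0.128 in daf-2 (adjusted p = 0.0221) and of 0.89 ± 0.130 in wild type (adjusted p = 0.000127). bli-4, the subtilisin-like procollagen protease, rose in both as well (0.70 and 0.48), and bli-3, the dual oxidase of tyrosine cross-linking, rose in wild type (0.57 ± 0.138, adjusted p = 0.00418). tfg-1 and tmem-39, both known for the export of secretory cargo from the endoplasmic reticulum, fell in wild type, with log2 changes of -0.78 ± 0.149 (adjusted p = 0.000884) and -0.54 ± 0.120 (adjusted p = 0.00248). In daf-2 their log2 changes of -0.16 and -0.20 were not called. phy-2, the other catalytic hydroxylase subunit, rose in wild type (0.51 ± 0.187, adjusted p = 0.0336) and fell in daf-2 (-0.51 ± 0.186, adjusted p = 0.0439), with an interaction of -1.02 ± 0.264 (adjusted p = 0.0449). These calls of phy-2 lie close to the threshold and were not followed under the alternatives. skpo-1, a peroxidase, rose in both genotypes and was lower in daf-2 at both ages, with 313.9, 311.8 and 461.9 CPM in daf-2 against 951.6, 810.8 and 1045 CPM in wild type at day 9 (-1.37 ± 0.188, adjusted p = 0.000515).

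Other genes of the extracellular matrix were called in both directions. Of all genes tested, 21.9% rose and 21.5% fell in daf-2, and 31.2% rose and 25.6% fell in wild type. Of 30 tested cuticlins and other cuticle genes, 2 rose and 6 fell in daf-2, and 7 rose and 3 fell in wild type. The largest fall was that of bli-6, a gene that the name rule of the collagen set did not take in. It had 0.240, 0.126 and 0.0415 CPM in daf-2 at day 9 against 5.69, 6.79 and 31.9 CPM at day 1, and 0.164, 0.0766 and 0.0838 CPM in wild type at day 9 against 7.34, 3.78 and 2.91 CPM at day 1. Of 21 basement membrane genes, 1 rose and 7 fell in daf-2 and 3 rose and 2 fell in wild type. Their type IV collagens emb-9 and let-2 fell in daf-2 by 1.11 and 1.199 on the log2 scale, and their changes of -0.36 and -0.46 in wild type were not called. Of 17 matrix proteases and inhibitors, 4 rose and 8 fell in daf-2, and 6 rose and 8 fell in wild type. timp-1, an inhibitor of metalloproteases, rose by 0.73 ± 0.116 in daf-2 and by 2.00 ± 0.120 in wild type, and the metalloprotease gene zmp-1 rose by 1.81 ± 0.251 and 2.43 ± 0.261. cpl-1, a cathepsin L known to act in moulting, fell by 1.77 ± 0.147 in daf-2 and by 0.89 ± 0.144 in wild type.

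Of 31 tested regulators of collagen genes, 7 rose and 5 fell with age in daf-2, where 21.9 and 21.5% of all genes did, and 11 rose and 5 fell in wild type, where 31.2 and 25.6% did. The rising shares are near those of all genes, and the falling shares are below them. blmp-1, a transcription factor of the epidermis that times cuticle gene expression, had 7.83, 6.58 and 9.18 CPM in daf-2 at day 9 against 33.9, 31.4 and 24.98 CPM at day 1, and in wild type 11.1, 11.8 and 12.1 CPM at day 9 against 24.0, 29.3 and 25.1 CPM at day 1. Its log2 change was -1.94 ± 0.158 in daf-2 (adjusted p = 3.24e-06) and -1.16 ± 0.156 in wild type (adjusted p = 6.94e-05). crm-1, which promotes the BMP-like signal that sets body size, rose by 1.07 ± 0.133 in daf-2 and by 1.80 ± 0.136 in wild type. lon-1, a target of that signal, was lower in daf-2 at day 9, with 28.8, 22.99 and 26.99 CPM against 88.8, 89.5 and 90.7 CPM in wild type (-1.77 ± 0.141, adjusted p = 8.65e-06). lon-2, which holds the same signal back, was higher in daf-2 at day 9 (0.66 ± 0.145, adjusted p = 0.0107), which was no longer called when replicate 1 of old wild type was left out (adjusted p = 0.0525).

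Marker lists of other tissues differed in their calls with age, where 21.9% of all genes rose and 21.5% fell in daf-2 and 31.2% rose and 25.6% fell in wild type. Of 25 tested epidermal genes, 2 rose and 4 fell in daf-2 and 5 rose and 6 fell in wild type, and their summed level ran from 787.3 to 1052 CPM in daf-2 at day 9 against 1049 to 1311 CPM at day 1, and from 786.4 to 915.7 CPM in wild type at day 9 against 712.3 to 1081 CPM at day 1. Of 19 muscle genes, 14 fell in daf-2 and 15 in wild type, with none rising, and their sums ran from 1301 to 1862 CPM in daf-2 at day 9 against 6018 to 8295 CPM at day 1, and from 1576 to 1688 CPM in wild type at day 9 against 4129 to 6085 CPM at day 1. Of 16 intestinal genes, 12 fell in daf-2 and 9 fell and 1 rose in wild type. Of 26 germline genes, 3 rose and 5 fell in daf-2 and 3 rose and 15 fell in wild type, and of 21 sperm genes 6 rose in daf-2 and 10 in wild type, with none falling. Of 26 moulting genes, 2 rose and 7 fell in daf-2 and 8 rose and 3 fell in wild type, and of 16 tested embryonic genes 1 rose and 5 fell in each genotype. Of 20 neuronal genes, 4 rose and 3 fell in daf-2 and 7 rose and 2 fell in wild type, shares near or below those of all genes. No gene of any list was at 0 in every library. The part of these shifts in the fall of the collagens was not tested.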

How the data were processed

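RNA of whole adults was sequenced from unstranded TruSeq libraries, per the labels. The deposited files hold whole-number counts per gene. Build WBcel235 and the tools STAR 2.7.0e, RSEM 1.3.1 and DESeq2 1.22.2 are listed, without roles, per the submitters' processing notes. How reads shared by paralogs were assigned is not stated there. Members and lists were chosen with earlier results of these data known.

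Counts were fitted with the quasi-likelihood test of edgeR (TMM scaling, filterByExpr with a minimum count of 10, 4 group means over 12 libraries, 15523 genes) and adjusted by Benjamini-Hochberg over all genes. The standard error is the log2 change over the square root of F. The procedure was tested on simulated data. No replicates were identical, and the labels do not say how far repeats are independent beyond calling them biological. Shares were compared by exact permutation.

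Members were named by a rule: up to 6 changes per direction and comparison among called members of at least 10 CPM without overlap, the 10 highest TPM, body-shape names, and stage and longevity lists. A further 24 were named after their values were seen. From each other list, the 2 called genes of smallest p per direction were eligible, and further list genes were named for their role after their values were seen. Replicate numbers were checked as pairs. Same-numbered day 9 libraries of the 2 genotypes had deviations that correlated at 0.357, 0.135 and 0.577, so there the numbers may pair the libraries. The labels state no pairing, differently numbered libraries were not compared, and the main fit used no block. Those of day 1 gave 0.227, 0.343 and -0.016. Alternatives were other scalings, filters, DESeq2, blocks and leaving out libraries.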

Additional observations from a re-analysis of the deposited data

Results flagged for a closer look

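The change with age differed between daf-2 and wild type, by the interaction in the model of all genes, for 11 of 121 collagen genes tested (9.09%). Each had the lower log2 change in daf-2. Of all genes tested, 4.72% had an interaction called below 0 and 0.573% above 0. Only 10.8% of all genes called lay above 0, so the shared sign is not particular to the collagens. The difference was -5.61 for col-183, -4.70 for col-50, -3.06 for col-93, -2.33 for col-62 and -2.26 for col-85. It was -1.84 for col-34, -1.62 for col-118, -1.43 for col-143, -1.25 for col-95, -1.10 for col-96 and -0.72 for col-155. The calls of col-183 and col-50 were kept under every alternative in which they were tested, and the other 9 were each lost under at least 1. The stricter filter left col-50 out of the test.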

How the results depend on the processing

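Of the 41 members that the stricter filter left in the test, 2 rose and 35 fell with age in daf-2 and 2 rose and 35 fell in wild type, 5 were higher and 0 lower in daf-2 at day 1, and 3 were higher at day 9. The matching shares of all genes under this filter were not counted. A member that passed it through its day 1 level alone could hardly be called rising. Leaving out members that overlap another gene gave 4 rising in daf-2, 6 rising in wild type, 5 higher at day 1 and 2 higher at day 9. These are calls of the main fit, where 21.9, 31.2, 10.3 and 4.54% of all genes were so called. How many of the members without overlap were tested was not counted. Fitting only the groups compared left 2 members lower at day 1. The replicate block among only the groups compared left 2 lower at day 1 and 12 higher at day 9, and the block over all libraries moved no count of members by more than 1.5 times. Without wild-type replicate 1 and daf-2 replicate 3 of day 1, a choice made after seeing the data as were the blocks of the compared groups, 23 members were higher at day 1, 10 higher at day 9 and 2 had an interaction above 0.

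Leaving out 1 library at a time, members rising and falling numbered 7 to 11 and 64 to 76 in daf-2, and 10 to 17 and 54 to 69 in wild type. Those higher and lower in daf-2 numbered 7 to 24 and 2 to 8 at day 1 and 2 to 10 and 11 to 15 at day 9, and those with an interaction above and below 0 numbered 0 to 4 and 3 to 17. The difference in share between genotypes at day 1 ran from -0.583 to 0.265 percentage points and changed sign. Of 4111 values of single genes under alternatives, 306 lost the call and 0 reversed. The part of an alternative that needs shared sequence was not run.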
